A study of Rattus norvegicus with 24 samples.

Results

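Left ventricular gene expression after ligation of the left coronary artery was compared with that after a sham operation in male Wistar rats fed a chow high in saturated fat. The comparison rests on the 6 arrays labelled HF_SAT, from rats with ligation, and the 6 labelled SHAM_SAT, out of 24 arrays in all, with 1 array for each animal. It is described over all 10344 genes detected on at least 6 arrays. The rats weighed 300 to 350 g, 60% of the calories of the chow came from fat, and palmitic, stearic and oleic acid made up 25%, 33% and 33% of its fatty acids. The 12 remaining arrays came from rats on normal chow, 6 with ligation (HF_NORM) and 6 with a sham operation (SHAM_NORM), and helped to estimate the spread. Procedures took place 3 to 6 h into the dark phase. The sources used here do not state the length of feeding, the infarct size or whether scar was in the tissue. Feeding began right after surgery, surgery was assigned at random, and the labels record the ligated rats as in heart failure. The animals are separate individuals that nothing pairs.

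Ligation of a coronary artery kills part of the left ventricular wall, and the rest of the chamber then carries more load. Stretched cardiomyocytes are known to switch on genes of the fetal heart, among them those for the natriuretic peptides, which make the kidney excrete salt and water. Fibroblasts lay down collagen and microfibrils, macrophages clear debris, and the failing muscle is known to lower its genes for burning fatty acids, the main fuel of the healthy heart and the nutrient in excess on this diet.

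Each of the 12 arrays detected between 8972 and 10475 of 22517 probes, and correlations between arrays of 1 group lay between 0.971 and 0.992. Signal of undetected probes split all 24 arrays into a set with high background (151 to 169) and a set with low background (85.1 to 98.2). The high set held 5 of 6 ligated and 3 of 6 sham animals on fat, and 20.5% of genes differed between the sets. Background did not differ between the ligated and sham groups beyond the spread (146 ± 26.5 against 125 ± 33.4, SD, n = 6 each, exact permutation p = 0.225, two-sided). An index of clock genes averaged 0.15 ± 0.86 in ligated and -0.83 ± 0.75 in sham animals (SD, n = 6 each, exact permutation p = 0.0584, two-sided). The part of background and of clock state in the results was not tested beyond the fits that carry them as terms. Cardiomyocyte markers fitted heart tissue. The mean log2 signal of 2 atrial markers varied widely, from 7.40 (animal 18) to 10.03 (animal 39) in ligated and 7.71 to 8.95 in sham animals. All 10 cardiomyocyte markers were detected, with a median difference of -0.04, although 7 lay near the top of the scanner's scale, where differences are compressed. None of the epithelial markers passed the detection filter.

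At a Benjamini-Hochberg adjusted p under 0.05 in limma, 92 of 10344 genes (0.889%) were called: 63 (0.609%) were higher and 29 (0.28%) lower in ligated than in sham animals. With median scaling of the arrays in place of quantile normalization the split was 59 higher and 44 lower, and with scaling on the median of all probes 10 genes were called, all higher. The median difference over all genes was -0.01 on the log2 scale, and 4819 were higher. At an unadjusted p under 0.05 there were 586 higher and 624 lower, so the tilt to higher genes lay among the larger differences: of 49 genes that differed by more than 1 on the log2 scale, 41 were higher. The 2 groups did not overlap in 149 genes (1.44%), and 61 of the 92 called genes were among these, 44 higher and 17 lower. Each called gene kept its sign with every single animal left out, while 35 also kept the call. With the array background as a block, 53 of the 92 remained called. Each gene with a symbol that lost its call to the block also lost it when any of 5 to 11 animals was left out. Calls near the threshold can end in either kind of fit, and the part of background in these losses was not tested. Of the 92, 84 carry an official symbol (56 higher and 28 lower) and are open to naming here.

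**Figure D1:**
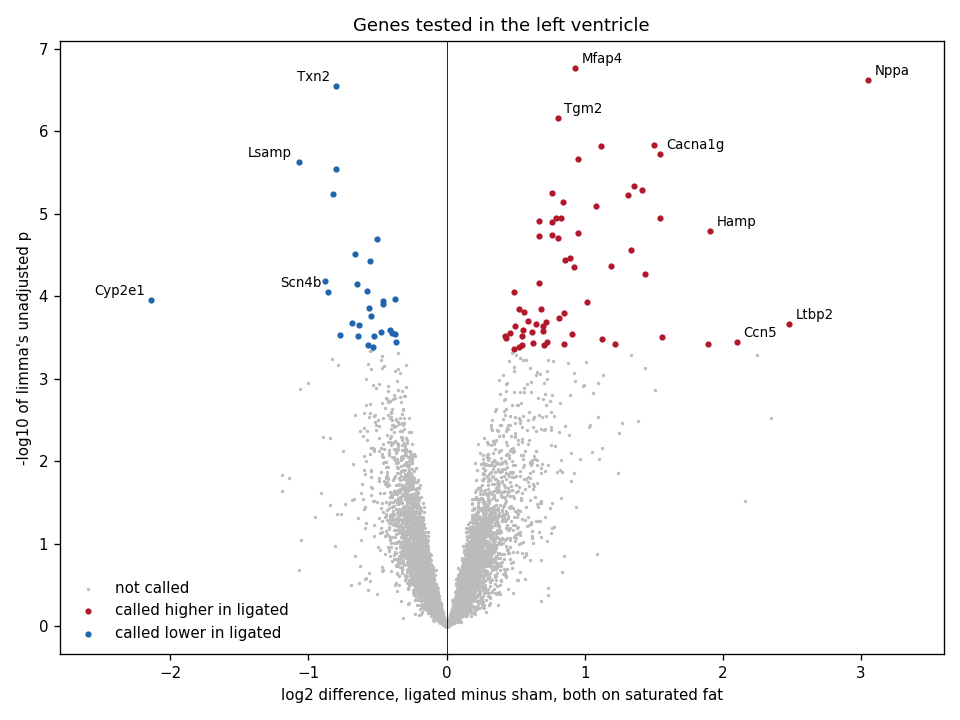
Each point is 1 of the 10344 genes, with the log2 difference between ligated and sham animals on saturated fat on the x axis and -log10 of limma's unadjusted p on the y axis; red and blue points were called higher and lower in ligated animals. Nppa at 3.05 and Cyp2e1 at -2.14 lie farthest out, and the right side holds 63 called genes against 29 on the left.

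Genes that the ventricle uses under wall stress gave the largest rise. Nppa, which encodes atrial natriuretic peptide, had a lowest, median and highest log2 signal of 12.49, 14.30 and 15.27 in ligated animals, against 10.88, 11.17 and 11.67 in sham animals. Every ligated animal lay above every sham animal, and the difference was 3.05 (SE 0.43, adjusted p = 0.000979), a fold of 8.28 with a 95% interval of 2.15 to 3.95 on the log2 scale. Ligated animal 18 was the lowest of its group by a wide margin. Nppb, the gene of the sister peptide BNP, measured 13.74, 14.14 and 14.56 in the ligated group and 12.76, 13.18 and 13.79 in the sham group. The groups touched at a single sham animal, 34, and the difference was 0.90 (SE 0.18, adjusted p = 0.0116). With the clock index and the background block together the call of Nppb ended (adjusted p = 0.0574), while that of Nppa stayed (0.0162). The pair are neighbours on chromosome 5, with no gene between them in the RefSeq table.

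Cacna1g, the gene of a T-type calcium channel that the fetal ventricle uses and the adult one largely loses, had values of 7.99, 8.62 and 8.90 in ligated animals, against 6.44, 7.05 and 7.66 in sham animals. No animals overlapped and the difference was 1.55 (SE 0.25, adjusted p = 0.00272). Acta1, the skeletal actin that is part of the same fetal set, also lay higher in 6 of 6 ligated animals (14.17, 14.58 and 15.40 in the ligated group and 13.46, 13.81 and 13.98 in the sham group), but at 0.99 (adjusted p = 0.0843) it was not called. Of 7 genes listed for wall stress and the fetal heart, 6 were higher, 3 of them called, and the median difference was 0.90 against -0.01 over all genes. The remaining members include Myh7, the slow myosin of the fetal rat ventricle, and Ankrd1, both near the top of the scale, where no size can be read. Myh6, the adult myosin, was near the top as well, at -0.05 (adjusted p = 0.822).

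Promoter sequence was examined for genes of wall stress and matrix because TEAD factors, which respond to load and stiffness, are known to act on several of them. The windows cover 250 bases before to 50 after the annotated start in RefSeq's GRCr8 assembly and are written along the gene's own strand. Capitals mark the letters CATTCC or their reverse complement GGAATG, the M-CAT motif of TEAD factors. The window of Nppb (chr5:163699758-163700057, plus strand) holds 1 match, that of Ccn2 (chr1:22624565-22624864, minus strand), the gene of connective tissue growth factor, holds 3, and that of Nppa (chr5:163711934-163712233, plus strand) holds none.
Nppb: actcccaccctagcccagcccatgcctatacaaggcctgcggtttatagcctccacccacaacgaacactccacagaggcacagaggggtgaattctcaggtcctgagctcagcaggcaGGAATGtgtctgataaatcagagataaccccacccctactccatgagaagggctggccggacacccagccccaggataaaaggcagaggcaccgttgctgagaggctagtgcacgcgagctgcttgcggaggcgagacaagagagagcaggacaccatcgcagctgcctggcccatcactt
Ccn2: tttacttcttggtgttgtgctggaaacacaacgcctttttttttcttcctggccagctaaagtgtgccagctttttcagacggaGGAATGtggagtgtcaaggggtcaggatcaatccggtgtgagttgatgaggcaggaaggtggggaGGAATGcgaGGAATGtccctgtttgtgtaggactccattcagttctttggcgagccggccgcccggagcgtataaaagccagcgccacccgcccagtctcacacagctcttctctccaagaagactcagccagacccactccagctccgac
Nppa: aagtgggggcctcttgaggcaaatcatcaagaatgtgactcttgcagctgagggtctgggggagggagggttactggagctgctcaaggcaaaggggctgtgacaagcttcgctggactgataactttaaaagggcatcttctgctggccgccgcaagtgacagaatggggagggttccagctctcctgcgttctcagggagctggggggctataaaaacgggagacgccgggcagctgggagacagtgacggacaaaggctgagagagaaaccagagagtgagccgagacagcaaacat
The match in Nppb begins at base -131 from the start, and the 3 in Ccn2 begin at -166, -101 and -92. The motif occurred in 5 of 43 windows of called higher genes (11.6%), in 4 of 25 of called lower genes (16%), in 11.6% of 7252 windows of genes tested and in 13.9% of all 27457 windows in the table. Ecrg4, Ckb and Cadm3 were the other higher genes with a match. A GATA motif (AGATAA on either strand) was present in 3 of the 43 (6.98%), Nppb, Hamp and Kiaa1755, against 6.66% of genes tested. The letters TGATAA, which the printed windows of Nppa and Nppb hold, were not searched for, so GATA sites spelled that way were not counted. These letters describe the windows and say nothing of which factor is bound.

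**Figure D2:**
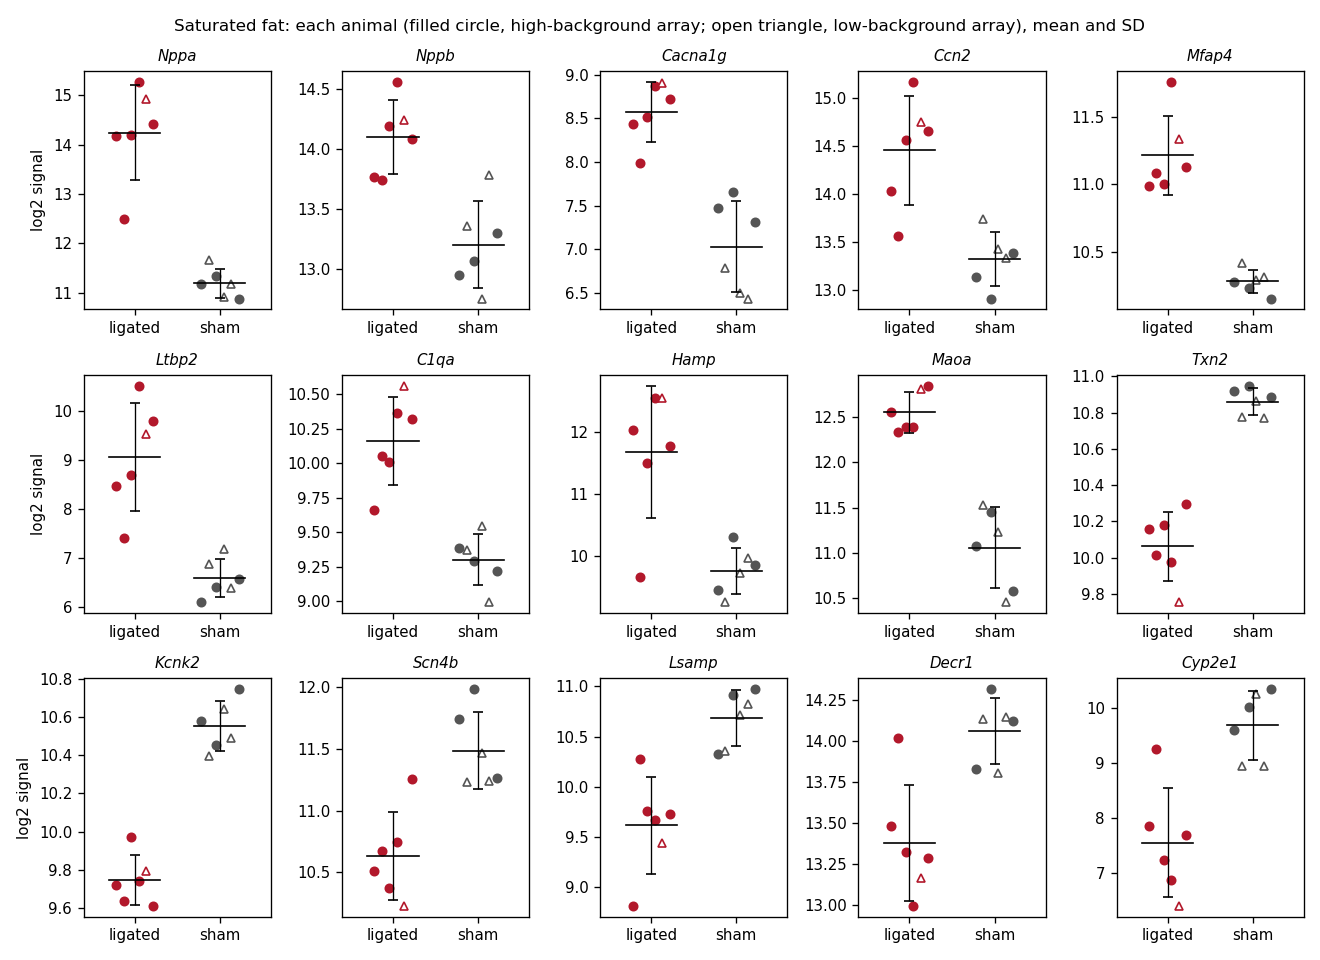
Each panel gives the log2 signal of 1 gene in the 6 ligated (left, red) and 6 sham (right, grey) animals on saturated fat, with the mean and SD; filled circles are arrays of high background and open triangles arrays of low background. The groups do not overlap for Nppa, Cacna1g, Mfap4, Ltbp2, C1qa, Maoa, Txn2, Kcnk2 and Lsamp.

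Extracellular matrix genes formed another group of rises, led by genes of microfibrils and of matricellular proteins rather than by the collagens. Mfap4, a glycoprotein that binds microfibrils and elastin, had a signal of 10.99, 11.11 and 11.76 in ligated animals, against 10.16, 10.29 and 10.42 in sham animals. The sham animals lay close together, and the difference of 0.93 (SE 0.13, adjusted p = 0.000979) shared the smallest adjusted p of the comparison with Nppa and Txn2. Ltbp2, which attaches to fibrillin microfibrils, rose by more, 2.48 (SE 0.57, adjusted p = 0.0382), but its ligated animals were widely spread (7.40, 9.10 and 10.51 in the ligated group and 6.09, 6.48 and 7.18 in the sham group). Fbln2, a fibulin that links elastic fibres and basement membranes, differed by 0.59 (SE 0.14, adjusted p = 0.0374), with values of 7.51, 7.94 and 8.13 in ligated animals, against 7.11, 7.25 and 7.52 in sham animals that overlapped slightly. Of 19 elastic fibre and microfibril genes 17 were higher, these 3 were called, and the median difference was 0.69.

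Among matricellular genes, whose products tune how cells meet the matrix rather than build it, all 12 tested were higher and 3 were called, with a median of 0.67. Ccn5, a CCN family member known to oppose the action of Ccn2 in the heart, gave 7.96, 8.65 and 10.02 in ligated animals, against 6.15, 6.94 and 7.54 in sham animals and a difference of 2.10 (SE 0.51, adjusted p = 0.0453). Ccn2 itself gave 13.56, 14.61 and 15.16 in the ligated group and 12.92, 13.37 and 13.74 in the sham group, a difference of 1.13 (SE 0.27, adjusted p = 0.0437). Ligated animal 18 fell among the sham values for Ccn2. Cilp, a matrix protein that binds TGF-beta, differed by 1.56 (SE 0.37, adjusted p = 0.0422). Its values were 6.53, 7.78 and 8.74 in ligated animals, against 5.87, 6.14 and 6.70 in sham animals, and its probe was above background in 4 of 6 sham animals. Thbs4 and Postn, products of activated fibroblasts, differed as much or more but were not called, at 2.24 (SE 0.56, adjusted p = 0.0538) and 2.35 (SE 0.71, adjusted p = 0.134). Postn had 8.37, 9.79 and 12.10 in the ligated group and 6.96, 7.44 and 8.58 in the sham group, so animal 18 lay below the highest sham animal.

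The proteoglycan list gave 11 of 12 higher with a median of 0.63. Prg4, the lubricin of joint and tendon surfaces, measured 7.39, 7.77 and 8.32 in the ligated group and 6.54, 6.88 and 7.13 in the sham group, and no animals overlapped (0.95 (SE 0.18, adjusted p = 0.00736)). Bgn, the small leucine-rich proteoglycan biglycan, measured 8.61, 8.88 and 9.98 in ligated animals, against 7.90, 8.18 and 8.38 in sham animals and rose by 0.85 (SE 0.21, adjusted p = 0.0454). Ligated animal 28 stood well above the next animal, at 9.98 against 9.03. Ecm1, a secreted matrix glycoprotein outside the lists, rose by 0.67 (SE 0.13, adjusted p = 0.00736) with no overlap. The collagens differed less: 13 of 15 were higher, none was called, 6 passed an unadjusted p under 0.05, and the median was 0.31. Over all 10344 genes 4819 were higher, 586 of them at that threshold. Col1a1, the main fibrillar collagen gene, had 9.96, 10.20 and 11.55 in ligated animals, against 9.03, 9.22 and 9.88 in sham animals and a difference of 1.04 (SE 0.32, adjusted p = 0.147). All ligated animals lay above all sham animals, but animal 28 was far above the rest of its group. Col3a1 differed by 0.89 (adjusted p = 0.167), the inhibitor of matrix proteases Timp1 by 0.71 (adjusted p = 0.257), and the crosslinking enzyme Lox by 0.69 (adjusted p = 0.597).

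Several of these matrix calls were fragile. With array background as a block, the adjusted p was 0.0689 for Ltbp2, 0.0863 for Ccn5, 0.0802 for Ccn2, 0.0838 for Cilp, 0.0838 for Bgn and 0.067 for Fbln2. Leaving out 1 animal ended the call for any of 9 animals for Ltbp2, 8 for Fbln2, 10 for Ccn2 and 11 each for Ccn5, Cilp and Bgn, with adjusted p-values up to 0.117, 0.117, 0.134, 0.134, 0.132 and 0.127 in that order. Mfap4, Prg4 and Ecm1 kept their calls in all of these fits. With the clock index and the block together the call of Prg4 ended (adjusted p = 0.0677).

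Genes of fibroblasts and macrophages were also among the rises. Pi16, a marker of fibroblasts around vessels, had a signal of 6.78, 7.07 and 8.35 in ligated animals, against 5.44, 5.77 and 6.39 in sham animals and a difference of 1.43 (SE 0.29, adjusted p = 0.0156); it was above background in 2 of 6 sham animals, and without ligated animal 28 the adjusted p was 0.0507. With the clock index as a covariate Pi16 was not called (adjusted p = 0.0628). Cd248, a surface protein of fibroblasts and pericytes, measured 10.93, 11.27 and 12.02 in the ligated group and 10.26, 10.59 and 11.02 in the sham group, a difference of 0.76 (SE 0.14, adjusted p = 0.00736). Of 13 fibroblast markers 12 were higher, with Pi16 and Cd248 called and a median of 0.29; their mean log2 signal ran from 11.35 to 12.00 in ligated and 10.99 to 11.37 in sham animals. All 7 markers of activated fibroblasts were higher, with a median of 1.10, and Ltbp2 and Cilp were the called members. In whole tissue a larger number of fibroblasts and more RNA in each one cannot be told apart, and the same holds for the other cell types. Igfbp6, a binding protein of insulin-like growth factors that fibroblasts secrete, had 9.61, 10.51 and 11.16 in ligated animals, against 8.94, 9.64 and 10.08 in sham animals and a difference of 0.85 (SE 0.19, adjusted p = 0.0318). With the block its adjusted p was 0.0596.

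The 3 chains of C1q, the complement protein that binds debris and is made by tissue macrophages, were all called. C1qa had a signal of 9.66, 10.19 and 10.56 in ligated animals, against 8.99, 9.33 and 9.55 in sham animals, with no overlap, and a difference of 0.86 (SE 0.17, adjusted p = 0.0116). C1qb measured 10.47, 10.68 and 11.14 in the ligated group and 9.84, 9.95 and 10.36 in the sham group, a difference of 0.67 (SE 0.14, adjusted p = 0.019). C1qc measured 9.84, 10.41 and 10.82 in the ligated group and 9.39, 9.60 and 9.89 in the sham group, a difference of 0.70 (SE 0.16, adjusted p = 0.0417), and overlapped slightly. The genes lie next to each other on chromosome 5, in the order C1qb, C1qc and C1qa. The call of C1qb ended without ligated animal 28 or 37 or sham animal 11 or 34 (adjusted p up to 0.0627). That of C1qc ended without any of 7 animals (up to 0.104) and with the block (0.0755). With the clock index as a covariate C1qb (0.0689) and C1qc (0.0509) were not called. With the index and the block together the call of C1qa ended too (0.0677).

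Folr2, a folate receptor of resident macrophages, had 7.24, 7.59 and 7.70 in ligated animals, against 6.20, 6.65 and 6.92 in sham animals and a difference of 0.91 (SE 0.21, adjusted p = 0.0417), with an adjusted p of 0.0806 with the block. Cd300le, a receptor gene of the CD300 family of myeloid cells, differed by 0.71 (SE 0.17, adjusted p = 0.0454), and 0.0689 was its adjusted p with the block. All 15 macrophage markers were higher, 3 of them (the C1q chains) called, and the median was 0.59. Their mean log2 signal ran from 8.54 to 9.32 in ligated and 8.19 to 8.69 in sham animals. Ctss, the lysosomal protease cathepsin S, lay higher in every ligated animal but missed the threshold at 0.74 (adjusted p = 0.0581), and the general marker Cd68 differed by 0.59 (adjusted p = 0.287). Of 14 complement genes 13 were higher, with a median of 0.39. Markers of other blood cells did not share this: none of the 3 neutrophil, 7 T and natural killer cell, 3 B cell or 3 mast cell markers was called, and the medians were -0.11, -0.18, -0.08 and -0.19. Their signal was weak, with mean log2 values of at most 6.56, 7.12, 6.05 and 6.72 in ligated animals, which limits what these medians can show. Of 14 interferon response genes 4 were higher and none was called (median -0.15), while 20 chemokine and cytokine genes had a median of 0.09 and none called.

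**Figure D3:**
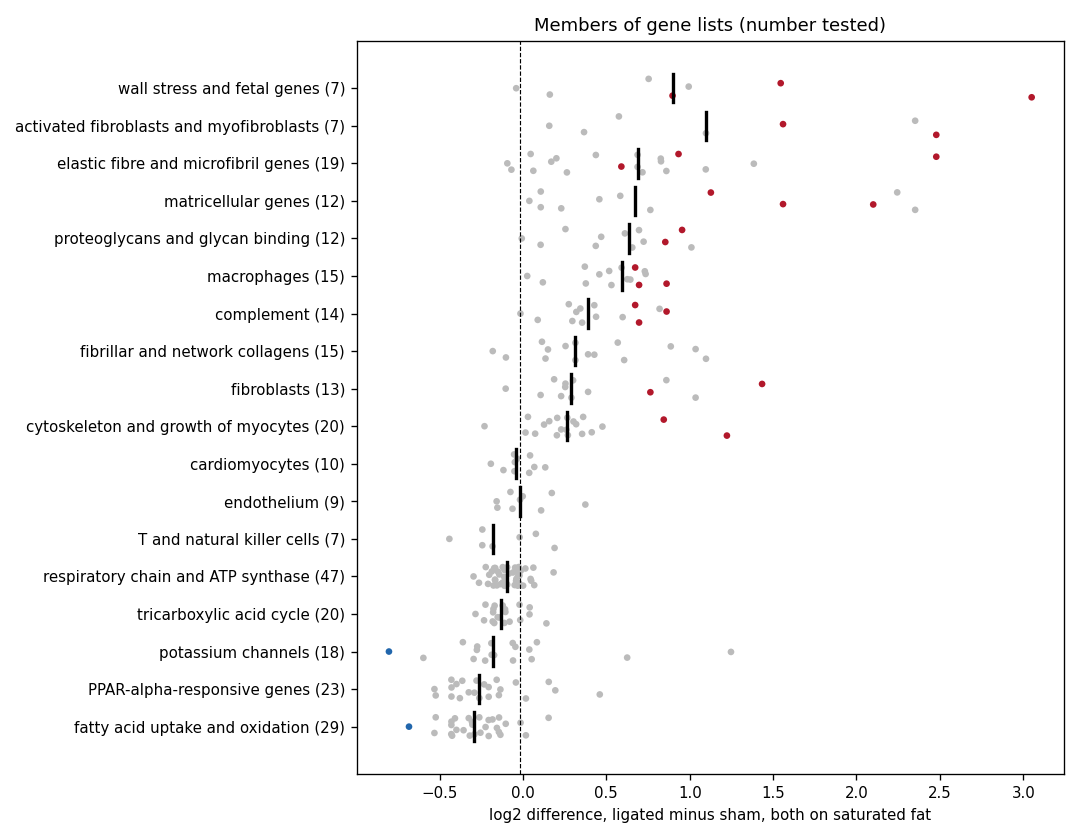
Each point is 1 gene of the list named on the left (number tested in brackets), placed by its log2 difference between ligated and sham animals on saturated fat; red and blue points were called higher and lower, black bars are list medians and the dashed line is the median of all genes. Activated fibroblast markers have the highest median (1.10) of the lists drawn, and fatty acid uptake and oxidation the lowest (-0.29).

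Several genes of secreted signals and their inhibitors, grouped after their values were seen, were among the calls. Hamp, hepcidin, the peptide that makes cells retain iron by degrading the iron exporter, had a signal of 9.67, 11.90 and 12.54 in ligated animals, against 9.26, 9.79 and 10.31 in sham animals and a difference of 1.91 (SE 0.36, adjusted p = 0.00736). In 5 of 6 ligated animals it was above every sham animal, while animal 18 fell within the sham range. With the clock index and the block together its call ended (adjusted p = 0.0508). Of 9 genes of iron handling Hamp was the only one called, and the median was 0.04. Gdf15, a stress cytokine of the TGF-beta superfamily, measured 6.05, 6.55 and 7.15 in the ligated group and 5.41, 5.67 and 5.90 in the sham group, a difference of 0.92 (SE 0.19, adjusted p = 0.0132). It was above background in 6 of 6 ligated animals and 1 of 6 sham animals, and its call ended with the clock index as a covariate (adjusted p = 0.0693). Fstl3, which traps activin and myostatin, had 9.37, 9.56 and 9.95 in ligated animals, against 8.58, 8.99 and 9.11 in sham animals, with no overlap, and a difference of 0.67 (SE 0.12, adjusted p = 0.00597). Its call also ended with the clock index and the block together (adjusted p = 0.0508). Tgfb1 differed by 0.38 (adjusted p = 0.593) and Spp1, osteopontin, by 0.11 (adjusted p = 0.976), neither of them called. Of 18 genes of the TGF-beta, activin and BMP pathway 13 were higher and 3 called, Fstl3, Gdf15 and Ltbp2.

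Further secreted products were called. Ecrg4, which encodes the secreted peptide precursor augurin, had 7.19, 7.95 and 8.47 in the ligated group and 6.26, 6.52 and 6.90 in the sham group, a difference of 1.34 (SE 0.26, adjusted p = 0.00993). Metrn, the neurotrophic factor meteorin, rose by 0.79 (SE 0.14, adjusted p = 0.00589). Sbsn, suprabasin, known from the epidermis, gave 7.28, 7.41 and 8.77 in ligated animals, against 6.08, 6.31 and 6.60 in sham animals and 1.42 (SE 0.24, adjusted p = 0.00404). None of these 3 overlapped between groups, and all kept their calls with the block and with each animal left out. With the clock index and the block together Ecrg4 lost its call (adjusted p = 0.0677). Cndp1, the enzyme carnosinase, rose by 0.55 (SE 0.13, adjusted p = 0.0417) but was above background in 1 of 6 sham animals, and its call ended with the block (0.0679).

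Called genes of the cytoskeleton are given here beside others of cell signalling, which were grouped after their values were seen. Enah, which drives actin filament growth and is known to rise in failing hearts, had 10.10, 10.75 and 10.87 in ligated animals, against 9.65, 9.81 and 9.95 in sham animals and a difference of 0.84 (SE 0.15, adjusted p = 0.00461). Csrp2, a LIM domain protein of smooth muscle and stressed myocytes, differed by 1.22 (SE 0.30, adjusted p = 0.0454). Its values were 8.43, 9.82 and 10.46 in the ligated group and 8.32, 8.48 and 8.59 in the sham group, so animal 18 lay among the sham animals. With the block its adjusted p was 0.0689. Of 20 genes listed for cytoskeleton and myocyte growth 19 were higher, those 2 called, with a median of 0.26. Rnd1, a small GTPase that loosens actin fibres, had 8.38, 8.69 and 9.65 in ligated animals, against 7.03, 7.69 and 7.91 in sham animals and a difference of 1.19 (SE 0.24, adjusted p = 0.0129). Raph1, lamellipodin, a partner of Enah, rose by 0.64 (SE 0.15, adjusted p = 0.0382), with an adjusted p of 0.0689 with the block. Akip1, which binds the catalytic subunit of protein kinase A and is known from hypertrophied myocytes, had 11.95, 12.32 and 12.98 in the ligated group and 10.84, 11.10 and 11.40 in the sham group, a difference of 1.31 (SE 0.23, adjusted p = 0.00404). Epn3, an epsin of endocytosis, had 7.44, 7.81 and 8.07 in ligated animals, against 5.85, 6.45 and 6.97 in sham animals and differed by 1.36 (SE 0.23, adjusted p = 0.00404). Prkcd, protein kinase C delta, rose by 0.83 (SE 0.15, adjusted p = 0.00589), Hopx, which restrains serum response factor in the heart, by 0.81 (SE 0.15, adjusted p = 0.0075), and Tgm2, the protein-crosslinking transglutaminase, by 0.80 (SE 0.12, adjusted p = 0.0018). Enah, Rnd1, Akip1, Epn3, Prkcd, Hopx and Tgm2 did not overlap between groups, and kept their calls with the block and with each animal left out. With the clock index as a covariate Rnd1 lost its call (adjusted p = 0.0683), and the others kept theirs.

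Maoa, the mitochondrial outer membrane enzyme that oxidises noradrenaline and serotonin and releases hydrogen peroxide, had a signal of 12.33, 12.48 and 12.85 in ligated animals, against 10.45, 11.15 and 11.53 in sham animals. The gap between the groups was wide, and the difference was 1.50 (SE 0.24, adjusted p = 0.00259), a fold of 2.83. Ckb, the brain isoform of creatine kinase, which the fetal heart uses, rose by 0.77 (SE 0.13, adjusted p = 0.00404), and Bok, a death-promoting Bcl-2 relative, by 0.95 (SE 0.15, adjusted p = 0.00272). The mitochondrial genes Ucp2, an inner membrane carrier, Mcub, which damps the calcium uniporter, and Iscu, the scaffold of iron-sulphur clusters, rose by 0.62, 0.46 and 0.52. Their calls ended with the block, at adjusted p-values of 0.0761, 0.0689 and 0.0574. Mcub was above background in 1 of 6 sham animals. The prostacyclin synthase gene Ptgis rose by 0.72 (SE 0.17, adjusted p = 0.0381), again with the call lost to the block (0.0689).

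Falls were smaller and fewer. They included genes of membrane current. Kcnk2, the stretch-activated potassium channel TREK, had a signal of 9.61, 9.73 and 9.97 in ligated animals, against 10.39, 10.53 and 10.74 in sham animals. The lowest sham animal lay well above the highest ligated animal, and the difference was -0.80 (SE 0.13, adjusted p = 0.00294). Scn4b, a beta subunit of the cardiac sodium channel, had 10.23, 10.59 and 11.25 in ligated animals, against 11.23, 11.36 and 11.98 in sham animals and differed by -0.85 (SE 0.18, adjusted p = 0.0218), with animal 39 the only ligated animal to reach the sham range. Its call ended without ligated animal 25 or 37 or sham animal 11 or 17 (adjusted p up to 0.0693). Fxyd6, a regulator of the sodium pump, rose by 0.55 (SE 0.13, adjusted p = 0.0417), a call that ended with the block (0.0724). The transient outward channel genes Kcnd2 and Kcnip2 differed by -0.60 (adjusted p = 0.215) and -0.06 (adjusted p = 0.916). Of 18 potassium channel genes 13 were lower and Kcnk2 alone was called, and of 15 sodium channel, exchanger and connexin genes 8 were lower, with Scn4b among those called. Calcium handling was split, 8 higher and 8 lower of 16, with Cacna1g the single call.

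Several called falls were in genes of mitochondrial proteins, grouped here after their values were seen. Txn2, the thioredoxin of the mitochondrial matrix, had a signal of 9.75, 10.09 and 10.29 in ligated animals, against 10.77, 10.87 and 10.95 in sham animals. Sham animals lay close together and no animals overlapped, and the difference was -0.80 (SE 0.11, adjusted p = 0.000979), a fold of 0.575. Decr1, the reductase needed to oxidise polyunsaturated fatty acids, measured 12.99, 13.30 and 14.02 in the ligated group and 13.80, 14.13 and 14.32 in the sham group, a difference of -0.68 (SE 0.16, adjusted p = 0.0382), with ligated animal 18 among the sham animals. Its call ended without any of 8 animals (adjusted p up to 0.117). Slc25a35, a mitochondrial carrier, had 7.06, 7.43 and 7.50 in ligated animals, against 7.74, 7.89 and 8.11 in sham animals and differed by -0.56 (SE 0.12, adjusted p = 0.0297). Coq8a, which supports coenzyme Q synthesis, fell by 0.50 (SE 0.10, adjusted p = 0.0075), with all ligated animals below all sham animals. Macrod1, a hydrolase of mitochondria, Mrps27, a subunit of the mitochondrial ribosome, and Myo19, the myosin that moves mitochondria, differed by -0.46, -0.37 and -0.37, also with no overlap. With the block the adjusted p was 0.0546 for Slc25a35, 0.0679 for Mrps27 and 0.0789 for Myo19, and Txn2, Decr1, Coq8a and Macrod1 stayed called. Macrod1 lost its call without any of 6 animals (up to 0.0836).

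The list for uptake and oxidation of fatty acids was lower almost throughout, in small steps. Of the 29 tested 27 were lower, 15 at an unadjusted p under 0.05, and Decr1 was the single call. Over all 10344 genes 5525 were lower, 624 of them at that threshold, and 29 (0.28%) were called lower. The median of the list was -0.29 on fat and -0.26 on chow. Cpt2, of the mitochondrial import of acyl groups, Hadhb, of the trifunctional protein, and Ech1, an isomerase for unsaturated chains, lay below every sham animal in 6 of 6 ligated animals but were not called, at -0.29 (adjusted p = 0.0616), -0.30 (adjusted p = 0.0997) and -0.43 (adjusted p = 0.105). Acadm, medium-chain dehydrogenase, differed by -0.21 (adjusted p = 0.364), and the import enzyme Cpt1b by -0.14 (adjusted p = 0.746). Of 23 genes known to respond to PPAR-alpha, the receptor through which fatty acids drive their own oxidation, 19 were lower with none called (median -0.26). Pdk4, which blocks pyruvate use, differed by -0.43 (adjusted p = 0.48), Angptl4 by -0.36 (adjusted p = 0.723) and Ucp3 by -0.29 (adjusted p = 0.69). Their 95% intervals include 0, and Angptl4's runs from -1.08 to 0.35. With the clock index and the block together Ucp3 was called, at -0.77 (adjusted p = 0.0484), while Angptl4 reached -0.90 (adjusted p = 0.266) and Pdk4 -0.61 (adjusted p = 0.412). The coactivator Ppargc1a differed by -0.33 (adjusted p = 0.469). The tricarboxylic acid cycle had 17 of 20 lower (median -0.13) and the respiratory chain and ATP synthase 40 of 47 (median -0.09), none called, and 13 of the 47 lay near the top of the scale.

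Genes of glucose use were evenly split. Pygb, the brain isoform of glycogen phosphorylase, was lower with no overlap, at 12.88, 13.19 and 13.29 in ligated animals, against 13.40, 13.49 and 13.65 in sham animals and a difference of -0.37 (SE 0.08, adjusted p = 0.0256). Its call ended without any of 5 animals (adjusted p up to 0.0807). Pygb was the single call among 22 genes of glucose use, 11 higher and 11 lower, and the glucose transporter Slc2a4 differed by -0.37 (adjusted p = 0.205). Fitm1, which helps to form lipid droplets in muscle, fell by 0.54 (SE 0.12, adjusted p = 0.0336), with an adjusted p of 0.0604 with the block. Of 19 genes of lipid droplets and triglyceride 14 were lower and none was called (median -0.13). Cyp2e1, a cytochrome that oxidises ethanol and fatty acids, had the largest fall of the comparison, with 6.41, 7.47 and 9.26 in the ligated group and 8.96, 9.82 and 10.35 in the sham group and a difference of -2.14 (SE 0.47, adjusted p = 0.0259). Its ligated animals were widely spread, animal 18 reached the sham range, and the call ended without any of 7 animals (adjusted p up to 0.0802). The glucagon receptor gene Gcgr fell by 0.53 (SE 0.13, adjusted p = 0.0417), with 0.0768 with the block.

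The other larger falls belong to no common list. Lsamp, a cell adhesion protein of the IgLON family best known from the limbic system, had a signal of 8.82, 9.70 and 10.28 in ligated animals, against 10.33, 10.77 and 10.97 in sham animals and a difference of -1.07 (SE 0.18, adjusted p = 0.00272). No animals overlapped. Ddit4l, an inhibitor of the growth kinase mTOR that myocytes make, had 8.77, 9.20 and 9.89 in the ligated group and 9.94, 10.03 and 10.64 in the sham group, a difference of -0.88 (SE 0.18, adjusted p = 0.0184), and lost its call without ligated animal 28 or 37 or sham animal 12 (adjusted p up to 0.0618). Sesn1, a sestrin that also restrains mTOR, had 11.12, 11.48 and 11.85 in ligated animals, against 11.83, 12.13 and 12.59 in sham animals and differed by -0.65 (SE 0.14, adjusted p = 0.0191), and lost its call without ligated animal 28 or sham animal 11 or 34 (up to 0.0668). Tmod4, a tropomodulin that caps thin filaments, had 8.30, 8.61 and 9.23 in the ligated group and 9.08, 9.47 and 9.76 in the sham group, a difference of -0.77 (SE 0.18, adjusted p = 0.0417). Tnik, a kinase of the Wnt pathway, gave 7.87, 8.18 and 8.31 in ligated animals, against 8.28, 8.79 and 9.23 in sham animals and -0.66 (SE 0.13, adjusted p = 0.0106). Wfdc1, a secreted whey acidic protein family member, had 9.59, 10.16 and 10.41 in the ligated group and 10.53, 10.75 and 11.06 in the sham group, a difference of -0.63 (SE 0.15, adjusted p = 0.0385), with no overlap. Amhr2, the receptor of anti-Mullerian hormone, had 9.04, 9.55 and 9.91 in ligated animals, against 9.97, 10.06 and 10.33 in sham animals and differed by -0.58 (SE 0.12, adjusted p = 0.0218), again with no overlap, and lost its call without ligated animal 37 or sham animal 34 or 35 (up to 0.0656). Emc9, of the complex that inserts membrane proteins, had 9.54, 9.75 and 10.45 in the ligated group and 10.20, 10.40 and 10.57 in the sham group, a difference of -0.57 (SE 0.14, adjusted p = 0.0454). With the block the adjusted p was 0.0574 for Tmod4, 0.0689 for Wfdc1 and 0.0864 for Emc9. Emc9 and Fitm1, both lower, have 1 gene between them on chromosome 15, as have Cacna1g and Epn3, both higher, on chromosome 10.

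**Figure D4:**
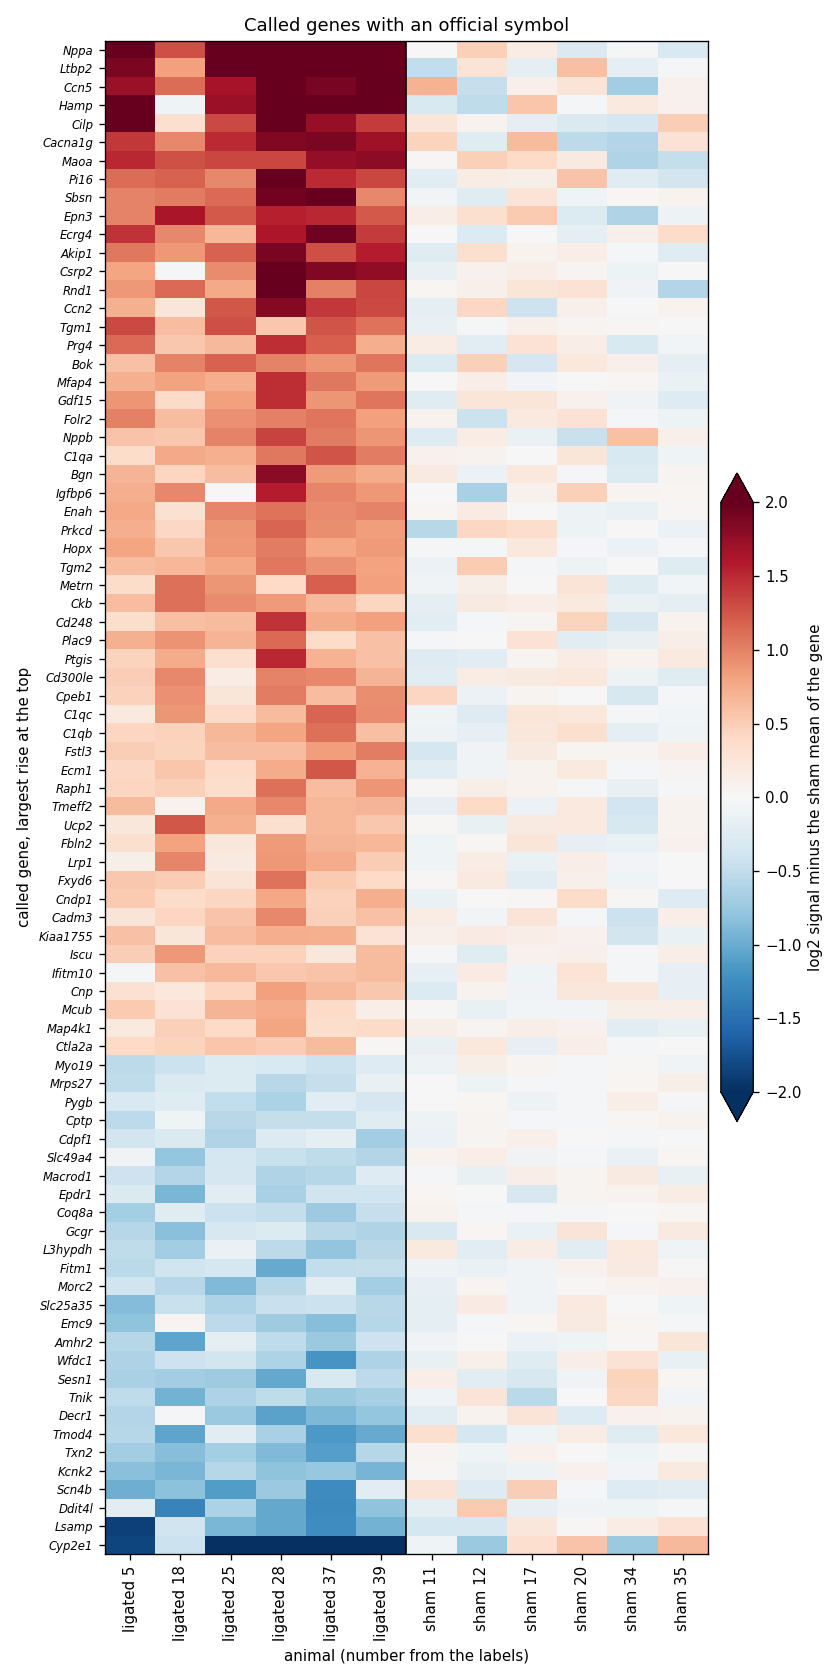
Rows are 82 called genes with an official symbol, largest rise at the top, and columns the 6 ligated (left) and 6 sham (right) animals on saturated fat; colour is the log2 signal minus the sham mean of the gene, cut off at 2 in either direction. Ligated animal 28 is darkest in the upper rows and animal 18 palest in the top rows.

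The 6 ligated hearts differed among themselves in a graded way. Of the 56 called higher genes with a symbol, animal 28 had the highest signal of its group in 34 and animal 37 in 12, while animal 18 had the lowest in 23 and animal 5 in 14. The mean log2 signal of the 12 matricellular genes was 10.69 in animal 28, 10.12 in animal 37, 9.95 in animal 39, 9.64 in animal 25, 9.61 in animal 5 and 9.24 in animal 18, and the sham animals ran from 8.65 to 9.43. The mean of the 29 fatty acid oxidation genes ran the other way: it was lowest in animal 28, at 12.29, and highest in animal 18, at 12.70, against 12.69 to 12.86 in sham animals. Sham animal 20 was the sham animal with the highest matricellular mean and the lowest oxidation mean, so that by both measures it met the range of the ligated group. Animals 28 and 18 were both on high-background arrays. No infarct size or heart function of single animals was used here.

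The same contrast on normal chow had 49 called genes (0.474%), 18 of them among the 92. The 2 contrasts share no animals, but they share the normalization and the estimate of the spread. Of the 92 genes 89 had the same sign on chow. The share of all genes with the same sign on both diets is not given here, so the count cannot be read as particular to the 92. Nppa differed by 2.71 on chow (adjusted p = 0.00288), Cacna1g by 1.72 (0.00217), Hamp by 1.57 (0.043), Mfap4 by 0.70 (0.00815), Tgm2 by 0.80 (0.00217) and Txn2 by -0.75 (0.00217). Of the matrix genes, Prg4 differed by 0.996 on chow (0.00614), Ecm1 by 0.71 (0.0056) and Fbln2 by 0.68 (0.0174), all called there with values slightly above those on fat. Ltbp2 differed by 1.80 on chow, Ccn5 by 1.82, Cilp by 1.16, Ccn2 by 1.07 and Bgn by 0.60, all below their values on fat and not called. Since the 92 were chosen on the fat contrast, a smaller value on chow is partly fixed by that choice. The difference between the diets was tested as an interaction, and no gene passed the adjusted threshold in limma, with 560 of 10344 at an unadjusted p under 0.05. The interaction contains the fat contrast on which called genes were chosen, so large interactions among them are partly fixed by that choice as well. Among called genes named here the interaction was largest relative to its SE for Metrn, which differed by 0.79 on fat and 0.06 on chow (interaction 0.73 ± 0.20, SE). Next were Lsamp (-1.07 on fat and -0.20 on chow), Coq8a (-0.50 and -0.05), Myo19 (-0.37 and 0.01) and Cd300le (0.71 and -0.01). Folr2 differed by 0.91 on fat and 0.20 on chow, and Postn by 2.35 and 0.33. Maoa differed by 1.50 on fat and 0.77 on chow (interaction 0.73 ± 0.34, SE).

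**Figure D5:**
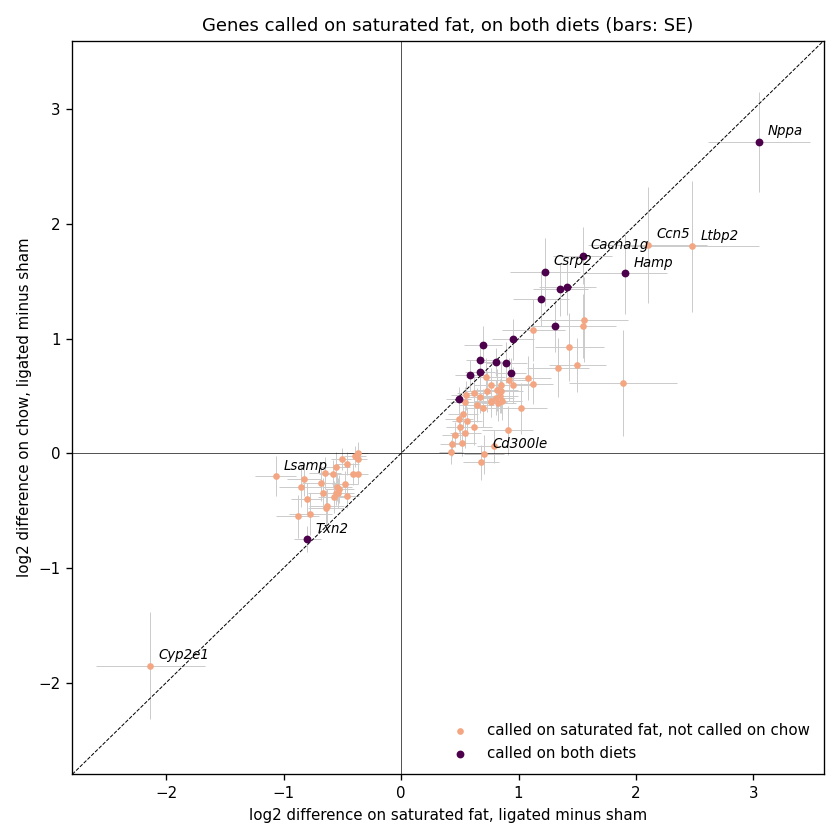
Each point is 1 of the 92 genes called on saturated fat, with its log2 difference between ligated and sham animals on fat (x axis) and on chow (y axis), bars giving SEs from the limma fit; dark points were called on both diets and the dashed line marks equal differences. Nppa, Cacna1g, Hamp and Txn2 lie near the line, while Lsamp and Cd300le lie near 0 on chow.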

How the data were processed

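Total RNA of the left ventricle of each rat was labelled with Cy3 and hybridised to 1 Illumina bead array for the rat, whose beads carry probes of 50 bases. The deposited table holds the signal intensity of each probe on a linear scale, which BeadStudio 3 exported, per the submitters' processing notes, without background correction or scaling as far as its values show, and a detection p-value per the file headers. A further table of intensity values normalized by the authors, by a method not given in the sources used here, served as an alternative. The number of animals limits the precision.

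In limma 3.58.1 under R 4.3.3, neqc subtracted background (negative controls were inferred through the detection p-values), added an offset of 16, quantile normalized the arrays and took log2. Detection at p under 0.05 was required on 6 arrays or more, which kept 10540 of 22517 probes, and the probe with the highest mean signal stood for each gene, which left 10344 genes. Of these 8947 have an official symbol in RefSeq's GRCr8 gene table, found through accession, gene ID, symbol or synonym. The linear model had 4 group means on 24 arrays, 20 residual degrees of freedom and empirical Bayes moderation, and the contrast was HF_SAT minus SHAM_SAT. The threshold for a call was a two-sided p under 0.05 after Benjamini-Hochberg adjustment over all genes; every adjusted p is limma's, with n = 6 per group. Arrays were split into high and low background at the largest gap in the signal of undetected probes, since the files name no chip or date. A probe counted as near the top of the scale when its median signal on high-background arrays exceeded 60000. Group differences of single array measures were tested over all 924 splits of 6 against 6. The code was tested on simulated data.

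All called genes with an official symbol could be named, 30 fixed genes could be named whatever their p, and up to 4 members with the smallest p were named for a list. Lists are described by counts and medians without a set test. Members, lists and tests were chosen with earlier results of these data known. Genes without an official symbol, 8 of the called ones, are not named, and a few further genes are not reported here. Alternatives covered the background batch, arrays in the fit, normalization, background correction, probe filter, variance model, array weights, a clock gene index and each animal left out.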

Additional observations from a re-analysis of the deposited data

Results flagged for a closer look

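Of 216 groups of 6 animals examined over named genes and array measures, 23 had an animal set apart from the rest of its group by a gap that takes up most of the group's range, 15 of them in ligated and 8 in sham animals. Independent, normally distributed values would give about 1 such group in 20. The groups here share the same animals and are not independent, so no excess over chance can be read from the count. Ligated animal 28 was high for Col1a1 (11.55), Bgn (9.98), Ptgis (12.07), Fxyd6 (10.53), Pi16 (8.35) and Cd68 (9.96) and low for Fitm1 (9.11). Ligated animal 18 was low for Hamp (9.67) and Tmeff2 (8.54) and high for Emc9 (10.45). Ligated animal 5 was low for Ifitm10 (7.60) and high for Tgfb1 (8.01). Ligated animal 37 was low for Wfdc1 (9.59) and animal 39 for Ctla2a (10.21). Among sham animals, animal 12 was high for Tgm2 (9.58) and Ddit4l (10.64) and animal 17 was high for Hopx (13.14) and low for Epdr1 (11.09). Sham animal 35 was high for Amhr2 (10.33), and animal 20 low for Angptl4 (7.52) and Ppara (6.02). All of these are log2 signals. The background signal of ligated animal 37 (92.7) stood apart as the only low-background array of its group, and the clock index of sham animal 12 (0.61) lay above those of the other sham animals.

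Group means of Ppara, the receptor gene PPAR-alpha, differed in opposite directions on the diets. The difference was 0.38 on fat (adjusted p = 0.572) and -0.61 on chow (adjusted p = 0.333), called on neither diet. Every ligated animal on fat lay above its sham mean and every ligated animal on chow below it, and the interaction was 0.99 on the log2 scale, unadjusted p = 0.0078, not called after adjustment. Sham animal 20 was the lowest of its group for Ppara, at 6.02, and lowered the sham mean on fat. The medians on fat were 7.02 in ligated and 7.05 in sham animals, so they showed no rise. With 1 fat-fed animal left out the difference of the means on fat ran from 0.21 to 0.44.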

How the results depend on the processing

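The 92 calls, 63 higher and 29 lower, became 57 with the background batch as a block, 9 within high-background arrays, 4 within low-background arrays (with 1 ligated animal, assumed to vary like the others), 58 without the filter on dim probes, 306 with array weights, 45 with the clock index as a covariate and 28 with index and block together. The counts of those 92 among them were 53, 8, 2, 54, 92, 42 and 26. Leaving out 1 animal gave 42 when ligated animal 28 was dropped and 181 when animal 18 was, and 43 to 56 for ligated animals 37 and 39 and sham animals 11, 12, 17, 34 and 35. The 12 fat-fed arrays alone gave 77, median scaling 103, the values normalized by the authors also 103, no background correction 97, detection on all 12 arrays 100 and an intensity trend 89. Of the main 92 these held 60, 80, 84, 81, 83 and 80 in that order. Alternatives chosen after seeing the data were median scaling with the block (112), median scaling on the median of all probes (10, all higher), leaving out probes near the top of the scale (92) and leaving out ligated animals 18 and 37, whose arrays correlated least with their group (100). Those fits kept 79, 10, 92 and 58 of the main 92. Median scaling lowered the medians of metabolic lists, which became -0.42 (fatty acid uptake and oxidation), -0.26 (citric acid cycle) and -0.27 (respiratory chain). The drop was not particular to them: the medians became -0.35 for cardiomyocyte markers, -0.18 for sarcomere and Z disc genes and -0.07 for all genes. The interaction with diet gave 0 called genes with the block and with median scaling.

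The called genes with a symbol kept their sign under every alternative that measured them. Uncalled genes reversed: Spp1 with the clock index (-0.13), without ligated animals 28 (-0.07) or 37 (-0.12) or sham animals 11 (-0.12) or 12 (-0.03), up to 0.58 without sham animal 20, and without the 2 least correlated animals (-0.10). Kcnip2 reversed with the clock index (0.0293), with index and block (0.0490) and without ligated animal 5 (0.0425, down to -0.21 without animal 18), Cpt1b with index and block (0.0685), and within low-background arrays Lox (-0.24) and Myh6 (0.0391). Of uncalled genes named here, Acta1 and Postn became called with the 12 fat-fed arrays alone and with array weights, Slc2a4 and Kcnd2 with array weights and without ligated animal 18, Slc2a4 also without animals 18 and 37, and Ucp3 with index and block. The cause was not tested. No paired analysis was possible because animal numbers never repeat between groups. Weak signals limit Pi16, Gdf15, Cilp, Cndp1, Mcub, Plac9, Epn3 and Raph1, which were not above background in every sham animal, and saturation limits probes near the top of the scale.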

Other observations

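The called genes not yet described span many functions. Among the rises, Tgm1, the transglutaminase of keratinocytes, had values of 6.66, 7.30 and 7.45 in ligated animals, against 5.98, 6.13 and 6.24 in sham animals and a difference of 1.02 (SE 0.22, adjusted p = 0.0264). The groups did not overlap, and the call ended without any of 8 animals (adjusted p up to 0.0693). Lrp1, a large endocytic receptor of fibroblasts and macrophages, rose by 0.56 (SE 0.13, adjusted p = 0.0318), a call that ended without any of 7 animals (adjusted p up to 0.107). Cpeb1, which controls the poly(A) tail of stored messages, rose by 0.70 (SE 0.16, adjusted p = 0.0385), lost its call with the block (0.0689) and was called on chow as well (0.95, adjusted p = 0.00398). Map4k1, a kinase of blood cells, rose by 0.43 (SE 0.10, adjusted p = 0.043), with an adjusted p of 0.0689 with the block. Cnp, an enzyme of myelin, rose by 0.49 (SE 0.10, adjusted p = 0.0218) and lost its call without any of 6 animals (up to 0.0763). Plac9, Tmeff2, Cadm3, Kiaa1755, Ifitm10 and Ctla2a rose by 0.73, 0.62, 0.55, 0.53, 0.49 and 0.43. With the block the calls of Plac9 (0.0724), Tmeff2 (0.0689), Cadm3 (0.0698) and Kiaa1755 (0.0734) ended, and Ifitm10 and Ctla2a stayed called but lost their calls without any of 10 and 9 animals. Among the falls, Morc2, a chromatin-silencing ATPase, fell by 0.56 (SE 0.11, adjusted p = 0.0118) and kept its call with the block and with each animal left out. L3hypdh, which degrades a hydroxyproline, fell by 0.53 (SE 0.13, adjusted p = 0.0472), and Cptp, which carries ceramide phosphate between membranes, fell by 0.39 (SE 0.09, adjusted p = 0.0417). Both calls ended with the block, at 0.0588 for L3hypdh and 0.0574 for Cptp. Epdr1, Slc49a4 and Cdpf1 differed by -0.48, -0.46 and -0.41. With the block Epdr1 (0.0724) and Cdpf1 (0.0689) lost their calls, and Slc49a4 lost its call without any of 6 animals.

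The other lists given here held no called gene, though some leaned in a single direction. Of 16 matrix protease and inhibitor genes 12 were higher, 5 of them at an unadjusted p under 0.05 in limma. Of 17 mitochondrial biogenesis genes 14 were lower, 5 of them at that threshold. Over all 10344 genes 586 were higher and 624 lower at that threshold. None of the 23 sarcomere and Z disc, 16 unfolded protein response, 16 heat shock, 17 proteolysis and autophagy, 17 apoptosis and ceramide, 14 cell cycle, 14 cholesterol and fatty acid synthesis, 15 ketone body and branched amino acid, 17 mitochondrial biogenesis, 16 matrix protease and inhibitor, 13 antigen presentation or 20 integrin and laminin genes was called, and their medians lay between -0.17 and 0.27. Apln, the vessel and inotropic peptide apelin, lay below every sham animal in 6 of 6 ligated animals but was not called, at -0.79 (adjusted p = 0.0616), and was the member with the smallest p of 21 hypoxia and angiogenesis genes (median -0.00). Rgs2, which damps signals of angiotensin and adrenergic receptors, differed by 0.73 (adjusted p = 0.0793), the smallest p of 19 such genes. Of 14 clock and clock output genes 12 were lower, none called, with a median of -0.26 against 0.07 on chow. No marker of endothelium (9 genes, median -0.02), smooth muscle (4, -0.04), pericytes (4, 0.08), adipocytes (6, -0.21), lymphatic endothelium (3, 0.17), Schwann cells (4, 0.18), epicardium (5, 0.36), red cells (5, -0.09), hepatocytes (2, 0.79) or skeletal muscle (3, -0.03) was called. The atrial markers Myl7 and Bmp10 differed by 0.69 (adjusted p = 0.833) and 0.02 (adjusted p = 0.973).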
